A study of Mus musculus with 2 samples.

Results

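The Iroquois homeobox genes Irx1, Irx2, Irx3, Irx5 and Irx6, 5 of the 31053 genes counted, were followed across hypothalamic cells of young mice that carried or lacked a mutation in Irx3 and Irx5. The members were taken by gene symbol, and all 5 were detected. The cells expressed a tdTomato reporter (the Ai14 line) switched on by Cre under the Ins2 promoter, and viable tdTomato+ cells of the arcuate nucleus-median eminence region were sorted from CD-1 mice at postnatal day 10. The dHet library came from mice of the genotype Ins2-Cre;tdTomato+/-;Irx3/5+/-, that is, heterozygous for Irx3 and for Irx5. The control library came from Ins2-Cre;tdTomato+/- mice with no Irx3/5 mutation named. Cre and reporter are therefore shared by both groups, and the sort limits every statement to cells in which Ins2-Cre had been active. Each library was made from 1 pool of 5 mice per the sample labels, although the protocol text gives 5 to 6, so no difference between genotypes could be set against variation between animals. Every interval below is a 95% interval that covers counting error only.

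Iroquois proteins are homeodomain transcription factors of the TALE class, marked by an extra loop of amino acids in the homeodomain. In vertebrates the genes lie in clusters on separate chromosomes, and genes of a cluster are often active in overlapping territories. They are known for dividing tissues such as the neural tube, heart and limb into regions. Irx3 has been studied in the hypothalamus because enhancers within the neighbouring gene Fto contact its promoter.

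On genome build GRCm38 (mm10), Irx1 lies on chromosome 13 at 71957921-71963723 (minus strand) and Irx2 on the same chromosome at 72628820-72634198 (plus strand), 665 kb away. Irx3 lies on chromosome 8 at 91798525-91802067 (minus strand), Irx5 at 92357625-92376286 (plus strand) and Irx6 at 92674288-92680956 (plus strand). The gap is 556 kb between Irx3 and Irx5, and 298 kb between Irx5 and Irx6. An annotated antisense gene, Irx3os, runs on the plus strand from 91800415 to 91807539 and overlaps the first 1.65 kb of Irx3. Promoter windows of 300 bases from RefSeq (GRCm38.p6) were at hand for 2 members, Irx3 and Irx2, 1 from each chromosome. They are shown because the Irx3 window lies wholly inside the stretch that is annotated as both Irx3 and Irx3os, on which a result below turns, and the Irx2 window stands for the chromosome 13 genes. Capitals mark the CCAAT box, whose letters are its name, and the GC box, spelled GGGCGG, on either strand. The TATA box was searched as well, with the letters TATAAA.
Irx3, chr8:91801605-91801904, minus strand: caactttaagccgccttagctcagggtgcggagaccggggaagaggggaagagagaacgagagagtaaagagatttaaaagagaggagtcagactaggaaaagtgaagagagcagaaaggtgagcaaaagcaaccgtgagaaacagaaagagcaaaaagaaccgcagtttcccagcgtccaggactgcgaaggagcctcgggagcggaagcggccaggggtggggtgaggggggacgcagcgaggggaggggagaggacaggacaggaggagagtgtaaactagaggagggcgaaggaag
Irx2, chr13:72628570-72628869, plus strand: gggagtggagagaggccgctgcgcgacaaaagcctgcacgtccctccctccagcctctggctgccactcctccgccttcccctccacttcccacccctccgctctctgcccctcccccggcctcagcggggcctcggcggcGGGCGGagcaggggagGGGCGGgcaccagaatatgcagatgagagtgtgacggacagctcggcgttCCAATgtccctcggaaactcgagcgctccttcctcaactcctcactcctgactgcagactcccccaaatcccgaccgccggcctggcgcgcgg
The Irx2 window held 2 GC boxes and 1 CCAAT box, and the Irx3 window held none of the 3 motifs. Of 32851 mouse promoter windows of this length, 35.7% held a GC box, 37.4% a CCAAT box and 13.6% a TATA box. The Irx3 window had 14 CpG dinucleotides and the Irx2 window 25, against a median of 7 over all windows.

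After filtering, the dHet library held 3941 cells with 75026958 UMIs (unique molecular identifiers, each counted as 1 captured RNA molecule), and the control library 3550 cells with 69957826 UMIs. The median cell had 17642 UMIs in dHet and 17383.5 in control. The libraries shared 5 barcodes, and none of the 10 cells held a UMI of a member. Cells were grouped without using any Iroquois gene, and classes are called by the markers they resemble. Of the astrocyte markers, 13 of 14 were found in at least 25% of the astrocyte-like cells of each library, as were 9 of 9 markers in the cells like oligodendrocyte precursors (OPC-like) and 12 of 12 in the ependymal-like cells. The OPC-like class also held dividing cells, since Top2a, Ube2c and Mki67 stood among its 10 leading genes beside Pdgfra and Cspg4. Levels are given as CPM, UMIs per 1e6 UMIs of the class. Class shares differed between libraries: OPC-like cells made up 2.82% of cells in dHet (111 cells) and 3.72% in control (132 cells), and ependymal-like cells 1.47% in dHet (58 cells) and 2.39% in control (85 cells). Astrocyte-like cells made up 10.6% in dHet (418 cells) and 11.6% in control (411 cells), and neuron-like cells 73.6% in dHet (2901 cells) and 66.3% in control (2355 cells).

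Irx1 and Irx2 shared 1 main cell class, and Irx3 and Irx5 another. Over both libraries, OPC-like cells gave 285 of the 377 UMIs of Irx1 and 78 of the 117 UMIs of Irx2. Astrocyte-like cells gave 82 of the 132 UMIs of Irx3 and 172 of the 295 UMIs of Irx5, and ependymal-like cells a further 15 and 59 UMIs of these genes. Irx6 had 19 UMIs in all, of which 11 lay in OPC-like cells, the main class of the chromosome 13 genes, although it is a neighbour of Irx5. Another 4 lay in neuron-like cells, all in 2 control cells that held Irx5 and no UMI of Irx1 or Irx2. Across 28 clusters of at least 20 cells, levels of Irx1 and Irx2 on the scale log2(CPM + 5) had a Pearson correlation of 0.96, and those of Irx3 and Irx5 of 0.91. Between these pairs the correlations were 0.49 to 0.59. Irx6 correlated with Irx1 at 0.46 and with Irx2 at 0.45, and with Irx3 at 0.19 and Irx5 at 0.31, all from its 19 UMIs. These correlations describe clusters that share the same 2 libraries and mostly sit near 0.

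**Figure D1:**
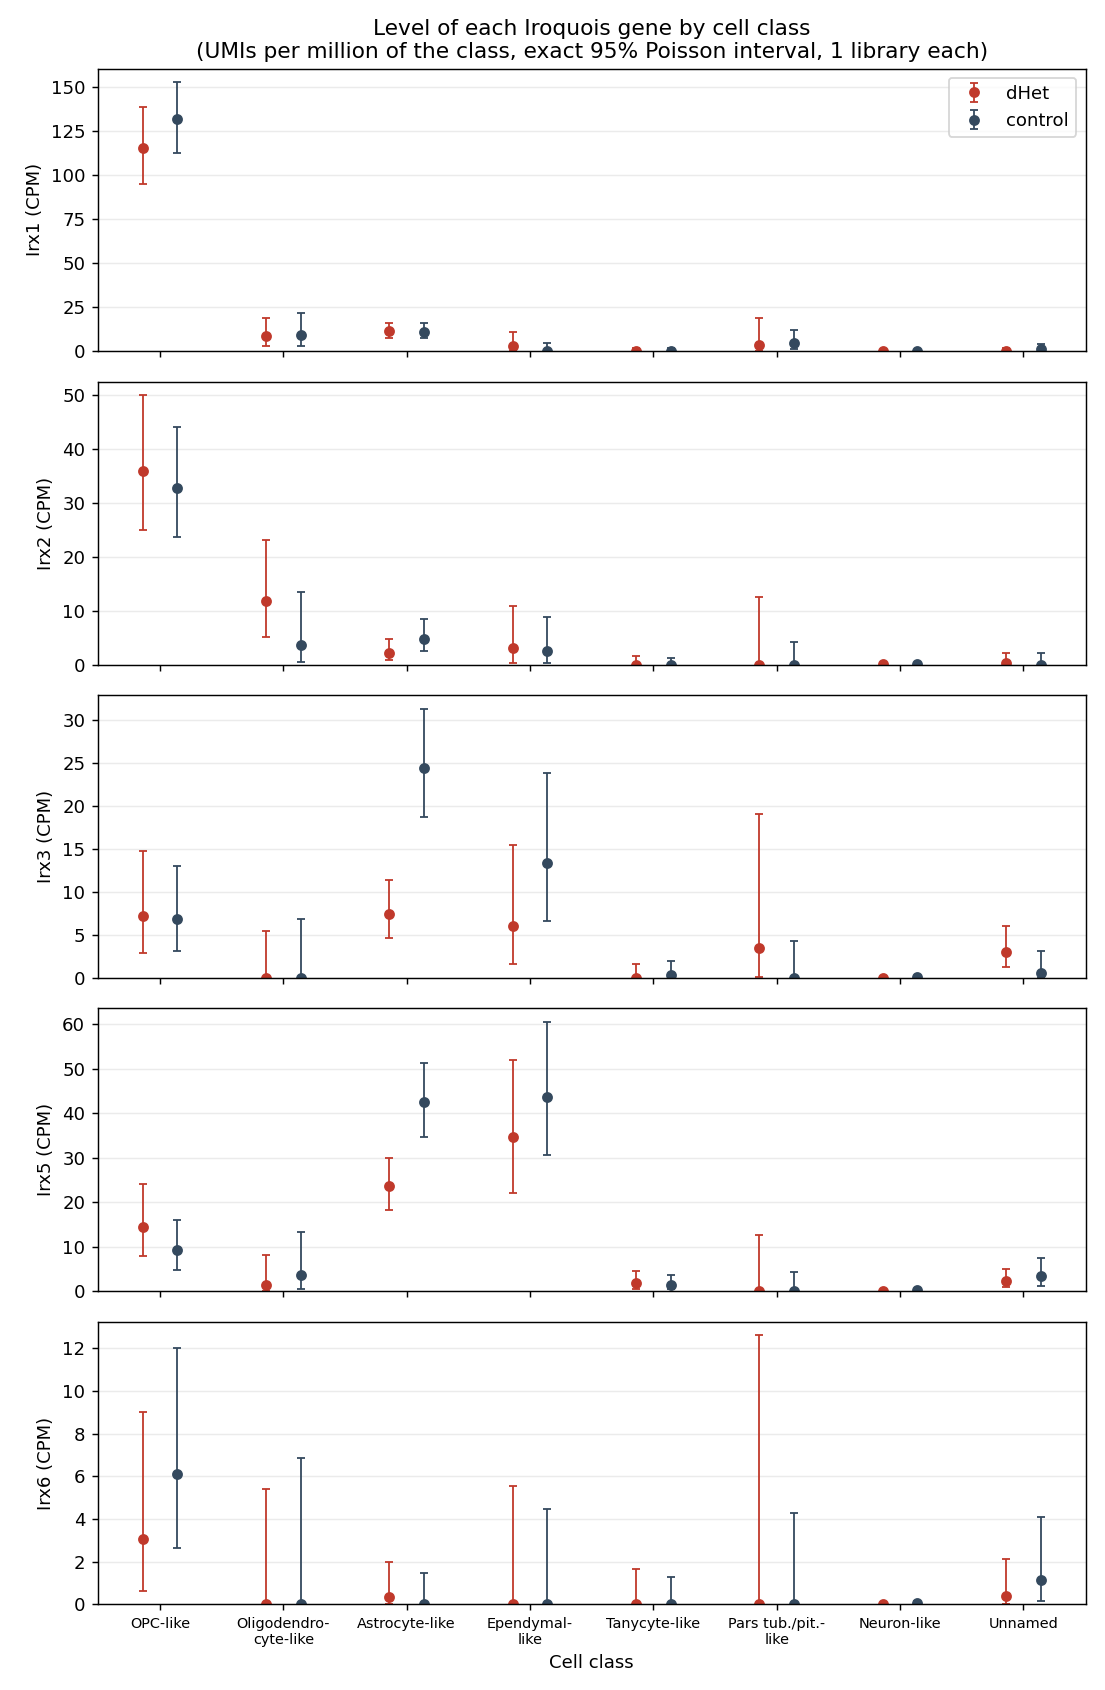
Level of each Iroquois gene in CPM (vertical axis, starting at 0) in 8 cell classes, with dHet left of control in each pair. Points are sums over the cells of 1 library and bars are exact 95% Poisson intervals. Irx1 and Irx2 peak in OPC-like cells, Irx3 and Irx5 in astrocyte-like and ependymal-like cells, and Irx6 has 5 UMIs in dHet and 14 in control.

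**Figure D2:**
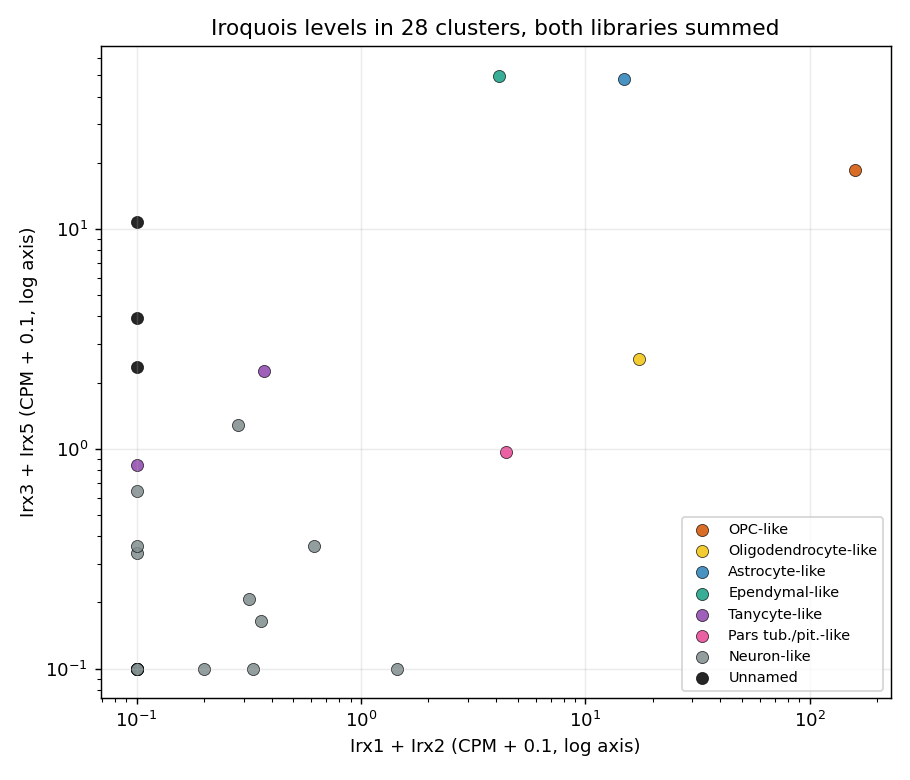
Summed CPM of Irx1 and Irx2 (horizontal, log axis, 0.1 added) against that of Irx3 and Irx5 (vertical, log axis, 0.1 added) in 28 clusters, both libraries together, coloured by class. The OPC-like cluster lies far to the right, the astrocyte-like and ependymal-like clusters at the top, and neuron-like clusters near the lower left corner.

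Irx1 was detected in most OPC-like cells. Its level there was 115 CPM in dHet (112 UMIs, interval 94.7 to 138 CPM) and 132 CPM in control (173 UMIs, 113 to 153 CPM). A UMI of Irx1 was found in 58.6% of OPC-like cells in dHet (65 of 111) and 65.2% in control (86 of 132), at a median depth of 7496 UMIs in dHet and 8936 in control. Neuron-like cells, at medians of 21331 UMIs in dHet and 23645 in control, held Irx1 in 0.138% of cells in dHet and 0.127% in control. Cells were also thinned to 4000 UMIs each, which left out 10 dHet and 20 control OPC-like cells below that depth. Irx1 was still found in 40.6% of the remaining 101 OPC-like cells in dHet and 49.1% of the remaining 112 in control. The next level of Irx1 was that of astrocyte-like cells, 11.4 CPM in dHet and 11.2 CPM in control, with oligodendrocyte-like cells at 8.80 CPM in dHet and 9.27 CPM in control, and the intervals of these neighbours overlapped.

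Irx1 was also present in dividing cells of the oligodendrocyte lineage. Among cells with UMIs of at least 2 of Olig1, Olig2, Pdgfra and Cspg4 and of at least 2 of 7 cell cycle genes, 21 of 35 in dHet (60.0%) and 23 of 41 in control (56.1%) held Irx1. Among cells with at least 2 cycle genes but under 2 of the lineage genes, 1 of 53 in dHet and 1 of 63 in control held it. Their median depth was 22977 UMIs in dHet and 26865 in control. Cells with both sets of genes had medians of 11355 in dHet and 11770 in control. Whether the deeper cells without the lineage genes were dividing was not tested. Irx2 was found in 8 of the 35 dHet cells and 9 of the 41 control cells with both sets of genes. Of the cells with cycle genes but under 2 lineage genes, 0 of 53 in dHet and 0 of 63 in control held Irx2. At a floor of 3 counts, this allows a share of cells with an Irx2 UMI of up to 5.66% in dHet and 4.76% in control, and it limits detection, not expression. Irx3 was found in 0 of the 35 dHet cells and 3 of the 41 control cells. Among cells with at least 2 cycle genes, a UMI of Irx1 thus went with the lineage genes, in both libraries. At a finer clustering the OPC-like cells without most of the dividing ones held 139 CPM of Irx1 in dHet (78 UMIs) and 162 CPM in control (126 UMIs). The cycling cluster led by Top2a and Epcam held 61.1 CPM in dHet (35 UMIs) and 61.5 CPM in control (51 UMIs).

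Irx2 had 35.9 CPM in OPC-like cells of dHet (35 UMIs) and 32.7 CPM in those of control (43 UMIs). In oligodendrocyte-like cells it had 11.7 CPM in dHet (8 UMIs in 39 cells) and 3.71 CPM in control (2 UMIs in 29 cells), with intervals that overlapped. Tanycyte-like cells, radial glia-like cells that line the third ventricle, held no UMI of Irx2 in 239 dHet and 287 control cells. For Irx6, OPC-like cells had 3 UMIs in dHet and 8 in control.

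Irx3 was mainly a gene of astrocyte-like cells, and its level there was lower in dHet. It had 7.49 CPM in dHet (21 UMIs, interval 4.63 to 11.4 CPM) and 24.4 CPM in control (61 UMIs, 18.7 to 31.4 CPM). The next levels among named classes were those of ependymal-like cells, 6.02 CPM in dHet and 13.4 CPM in control, and of OPC-like cells, 7.19 CPM in dHet and 6.85 CPM in control. Within dHet the intervals of these 3 classes overlapped, so their order cannot be told. Unnamed cells held 8 UMIs of Irx3 in dHet and 1 in control. Of the 8, 5 lay in a cluster led by Foxb1, described below. The other 3 lay in the 14 dHet cells of a cluster led by Fmo2 and Wfdc2 and gave 22.1 CPM there. Its 3 control cells held 0. In tanycyte-like cells Irx3 had 0 UMIs in dHet and 1 in control, although these cells line the same ventricle as the ependymal-like ones.

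Irx5 reached similar levels in astrocyte-like and ependymal-like cells. Astrocyte-like cells had 23.5 CPM in dHet (66 UMIs, interval 18.2 to 29.9 CPM) and 42.4 CPM in control (106 UMIs, 34.7 to 51.3 CPM). Ependymal-like cells had 34.6 CPM in dHet (23 UMIs, 21.9 to 52.0 CPM) and 43.7 CPM in control (36 UMIs, 30.6 to 60.5 CPM). OPC-like cells held 14.4 CPM in dHet and 9.13 CPM in control, and tanycyte-like cells 1.81 CPM in dHet and 1.41 CPM in control, each from 4 UMIs.

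Neuron-like cells held almost none of the family. Irx3 had 0 UMIs in 2901 dHet cells and 8 in 2355 control cells, and Irx5 had 2 UMIs in dHet and 13 in control. At a floor of 3 counts, the count of 0 allows an Irx3 UMI in up to 0.103% of neuron-like dHet cells. A cluster left unnamed was led by Foxb1 and Nxph4 and was as deep as neurons (median 29501.5 UMIs in dHet and 34095.5 in control). The neuron markers Slc17a6 and Tubb3 were among its leading genes over the named non-neuronal classes, so the neuron-like counts leave out cells with neuron markers. This cluster went the other way. Irx3 had 5 UMIs in 3 of 72 dHet cells and 0 UMIs in 28 control cells, and Irx5 had 2 UMIs in dHet and 0 in control. Of the control UMIs, 4 of Irx3, 9 of Irx5 and 4 of Irx6 came from 2 of the 166 control cells of a cluster led by Fezf1, a transcription factor gene of ventromedial hypothalamic neurons. The first of these cells held 4 UMIs of Irx5 and 1 of Irx6, and the other 4 of Irx3, 5 of Irx5 and 3 of Irx6. In the 195 dHet cells of that cluster the 3 chromosome 8 genes were at 0. Agrp/Npy neurons, which promote feeding, held no UMI of Irx3 in 358 dHet and 196 control cells, and their Irx5 count was 0 UMIs in dHet and 1 UMI in control.

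A UMI of at least 1 member was found in 225 dHet cells and 290 control cells, and of 2 or more members in 46 dHet cells and 70 control cells. Only Irx1 or Irx2 was found in 105 dHet and 116 control cells, only Irx3, Irx5 or Irx6 in 102 dHet and 153 control cells, and genes of both chromosomes in 18 dHet and 21 control cells. Cells with a member had a median of 7828 UMIs in dHet and 8754 in control, and cells without one 18287 in dHet and 18682 in control. The members were thus found mainly in glia-like cells, which were shallower than neuron-like cells here.

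Irx1 and Irx2 shared cells. In OPC-like cells, 22 of the 26 dHet cells with Irx2 (84.6%) and 29 of the 32 control cells with Irx2 (90.6%) also held Irx1. Turned round, 33.8% of the Irx1 cells in dHet and 33.7% in control held Irx2, against 8.70% in dHet and 6.52% in control of the OPC-like cells without Irx1. OPC-like cells were also split at their own median depth within each library. The same order was seen in the deeper 55 dHet cells (40.6% against 8.70%) and the deeper 66 control cells (37.5% against 5.56%). The shallower OPC-like cells of each library showed it as well. All 3 dHet and all 7 control OPC-like cells with Irx6 held Irx1 as well.

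Irx3 and Irx5 shared fewer cells. In astrocyte-like cells, 5 of the 18 dHet cells with Irx3 (27.8%) and 12 of the 49 control cells with Irx3 (24.5%) also held Irx5, against 12.5% in dHet and 17.4% in control of cells without Irx3. Astrocyte-like cells were also split at their own median depth within each library, and all of these shared cells lay in the deeper part. Among the deeper 205 control cells the share with Irx5 was 30.0% in cells with Irx3 and 28.5% in cells without, nearly the same. Among the deeper 209 dHet cells it was 35.7% (5 of 14 cells) in cells with Irx3 and 13.8% in cells without. Detection is incomplete at these levels, with 15 of 18 dHet and 39 of 49 control astrocyte-like cells with Irx3 at exactly 1 UMI, so a cell without a UMI is not a cell without the RNA.

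**Figure D3:**
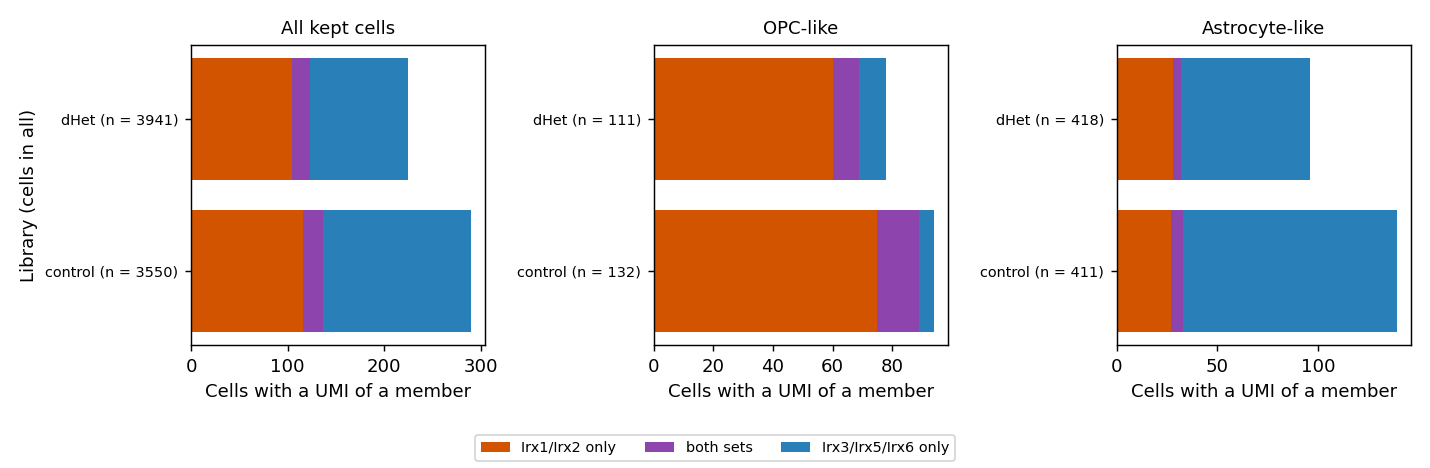
Number of cells with a UMI of a member (horizontal axis, cells), split into those with only Irx1 or Irx2, with members of both sets, and with only Irx3, Irx5 or Irx6, for dHet (upper bar) and control (lower bar). OPC-like cells are mostly Irx1 or Irx2 only and astrocyte-like cells mostly Irx3, Irx5 or Irx6 only, in both libraries.

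Between genotypes, the mutated genes were lower in dHet. Over all kept cells Irx3 had 41 UMIs in dHet and 91 in control, a ratio of dHet over control CPM of 0.420 (0.283 to 0.614). Irx5 had 116 UMIs in dHet and 179 in control, a ratio of 0.604 (0.474 to 0.768). Of the 4 members with at least 20 UMIs, these 2 were past 1.5-fold lower, where 4.32% of all 17226 genes with at least 20 UMIs were past 1.5-fold lower and 3.98% past 1.5-fold higher. Among genes with 20 to 400 UMIs, the range that holds Irx3 and Irx5, 12% were past 1.5-fold lower and 12.5% past 1.5-fold higher. Irx6 had 5 UMIs in dHet and 14 in control, a ratio of 0.333 (0.0939 to 0.978). What stretch of Irx3 and Irx5 the mutant alleles lack is unstated in the labels, and UMIs of a 3′ assay outside that part would not show the loss of an allele.

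In astrocyte-like cells the ratio of Irx3 was 0.307 (0.177 to 0.511) and that of Irx5 0.554 (0.401 to 0.761). These were 2 of the 3 members with at least 20 UMIs, where 6.17% of 11260 genes were past 1.5-fold lower in this class and 6.56% past 1.5-fold higher. The share of astrocyte-like cells with a UMI of Irx3 was 4.31% in dHet (18 cells, 2.57 to 6.72%) and 11.9% in control (49 cells, 8.95 to 15.5%). For Irx5 it was 13.2% in dHet (55 cells, 10.1 to 16.8%) and 18.2% in control (75 cells, 14.6 to 22.3%). Thinned to 4000 UMIs, the shares were 3.18% in dHet and 10.7% in control for Irx3, and 8.09% in dHet and 14.0% in control for Irx5. The thinned shares leave out 72 dHet and 104 control astrocyte-like cells below 4000 UMIs. The median depth of these cells was 6468.5 UMIs in dHet and 5653 in control. Summed neuron markers in this class were 539 CPM in dHet and 375 CPM in control, OPC markers 423 CPM in dHet and 488 CPM in control, cycling markers 98.8 CPM in dHet and 61.3 CPM in control, and mural markers 60.6 CPM in dHet and 36.8 CPM in control, and their part in the result was not tested.

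A finer division of the astrocyte-like cells gave 4 groups, of which 2 held nearly all UMIs of Irx5. The group led by Agt and Ednrb held 310 dHet and 229 control cells of nearly equal median depth, 6774.5 UMIs in dHet and 6678 in control. There Irx3 had 9.81 CPM in dHet and 28.5 CPM in control, a ratio of 0.345 (0.195 to 0.589), and Irx5 had 22.9 CPM in dHet and 52.6 CPM in control, a ratio of 0.435 (0.300 to 0.626). The group led by Fgfr3 held 66 dHet and 141 control cells. There Irx3 had 0 UMIs in dHet and 10 in control, whereas Irx5 had 54.9 CPM in dHet (15 UMIs) and 33.1 CPM in control (20 UMIs), a ratio of 1.66 (0.792 to 3.41). The group led by Gfap had 2 UMIs of Irx5 in dHet and 1 in control, and 0 UMIs of Irx3 in dHet and 3 in control. The group led by Fabp7 had no UMI of Irx5, and 0 UMIs of Irx3 in dHet and 2 in control. These groups were looked at after their values were known, and the difference between their ratios was not tested.

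Ependymal-like cells gave an Irx5 ratio of 0.792 (0.448 to 1.37) and an Irx3 ratio of 0.451 (0.105 to 1.52), from 4 UMIs in dHet and 11 in control, and neither could be told from 1. Irx5 was the only member with 20 UMIs in this class and was within 1.5-fold, where 10.8% of genes were past 1.5-fold lower and 11.5% past 1.5-fold higher. In OPC-like cells Irx3 had a ratio of 1.05 (0.332 to 3.17) and Irx5 of 1.58 (0.676 to 3.73). Irx5 was thus past 1.5-fold higher on 14 UMIs in dHet and 12 in control, where 9.05% of genes in OPC-like cells were past 1.5-fold higher and 5.78% past 1.5-fold lower, and its interval takes in 1. Under 12 alternatives the ratio in OPC-like cells ran from 0.665 to 2.59 for Irx3 and from 0.554 to 3.34 for Irx5, so no direction can be given. Markers of pars tuberalis or pituitary cells summed to 573 CPM in dHet and 140 CPM in control in this class, and their part in the result was not tested.

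Irx1 and Irx2, for which no mutation is named, had lower totals in dHet. Over all kept cells Irx1 had 161 UMIs in dHet and 216 in control, a ratio of 0.695 (0.563 to 0.856), and Irx2 had 55 UMIs in dHet and 62 in control, a ratio of 0.827 (0.565 to 1.21). Within OPC-like cells the ratio of Irx1 was 0.874 (0.683 to 1.12) and that of Irx2 1.10 (0.683 to 1.76). Within astrocyte-like cells Irx1 had a ratio of 1.02 (0.594 to 1.75) and Irx2 of 0.445 (0.137 to 1.28), the last from 6 UMIs in dHet and 12 in control. As an arithmetic split, control levels per class were combined with the dHet share of UMIs per class. That gave a ratio of 0.752 for Irx1 and 0.793 for Irx2 from the class mix alone, and left 0.924 for Irx1 and 1.04 for Irx2 to the level within classes. The same split gave 0.974 for Irx3 and 0.968 for Irx5 from the mix, and left 0.431 for Irx3 and 0.624 for Irx5. The split rests on shares of UMIs, which hold both the number of cells of a class and their depth. With 1 pool per genotype, whether the lower OPC-like share belongs to the genotype or to the pool cannot be told apart.

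**Figure D4:**
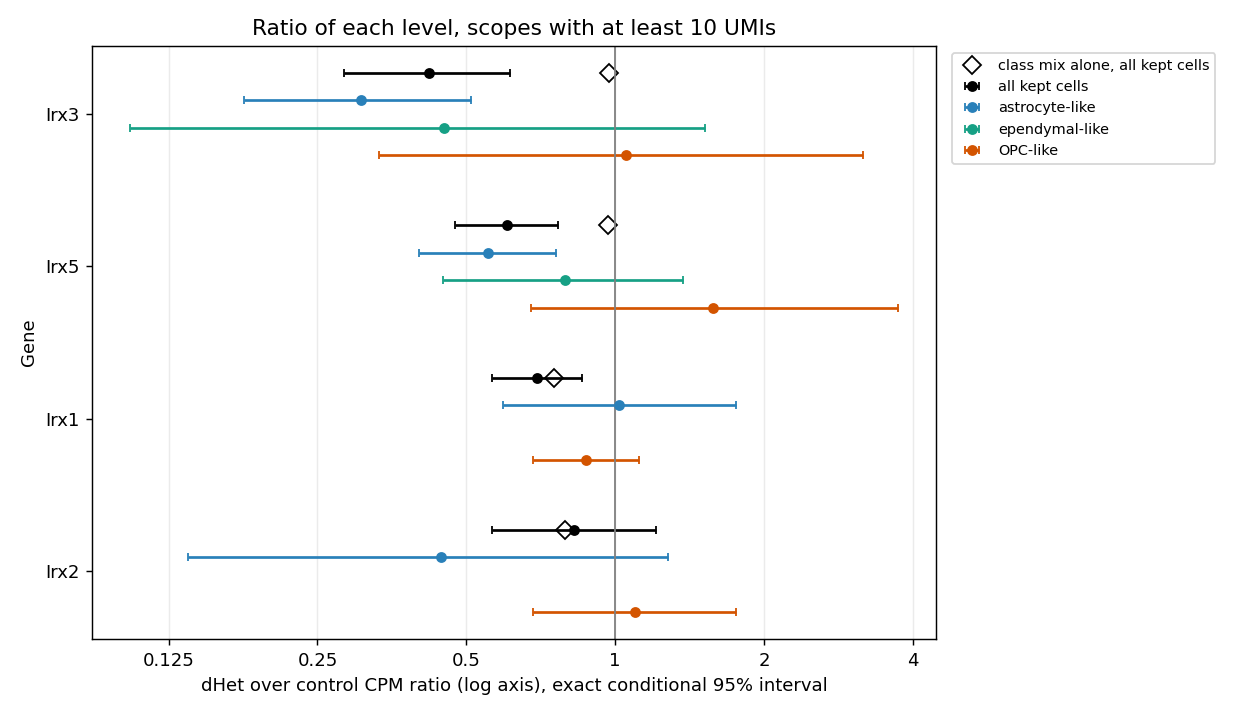
Ratio of dHet over control CPM (horizontal, log axis) for Irx3, Irx5, Irx1 and Irx2, with exact conditional 95% intervals, over all kept cells and in 3 classes, for scopes with at least 10 UMIs. Open diamonds give the ratio that the class mix alone would give over all kept cells. The diamond lies close to 1 for Irx3 and Irx5 and close to the measured ratio for Irx1 and Irx2.

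The antisense gene Irx3os, which overlaps the start of Irx3, was detected in dHet and not in control. It had 33 UMIs in 32 of 3941 dHet cells (0.812%) and 0 UMIs in 3550 control cells, which at a floor of 3 counts allows an Irx3os UMI in up to 0.0845% of control cells. Its level in dHet was at least 7.88-fold higher by the lower limit of the exact interval of the ratio, and 10.3 times the level of the floor over the control library. No other gene of the 31053 had as many as 33 UMIs in dHet and 0 in control, and none had the reverse. The UMIs lay in astrocyte-like cells (13 in 12 of 418 dHet cells), neuron-like cells (14 in 14 of 2901 dHet cells) and a scatter of other cells, at most 2 per cell. Of the 14 in neuron-like cells, 7 lay in 7 of the 195 dHet cells of the cluster led by Fezf1. Of the 32 cells, 1 also held Irx3 and 2 held Irx5. The whole set of deposited barcodes gave the same 33 UMIs in dHet and 0 in control. No source used here states the strand setting of the counting. How reads in the overlap of Irx3 and its antisense partner were assigned was not tested. Irx4, a further family gene on chromosome 13 outside the set described, had 0 UMIs in dHet and 4 in control, all in cells like pars tuberalis or pituitary.

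**Figure D5:**
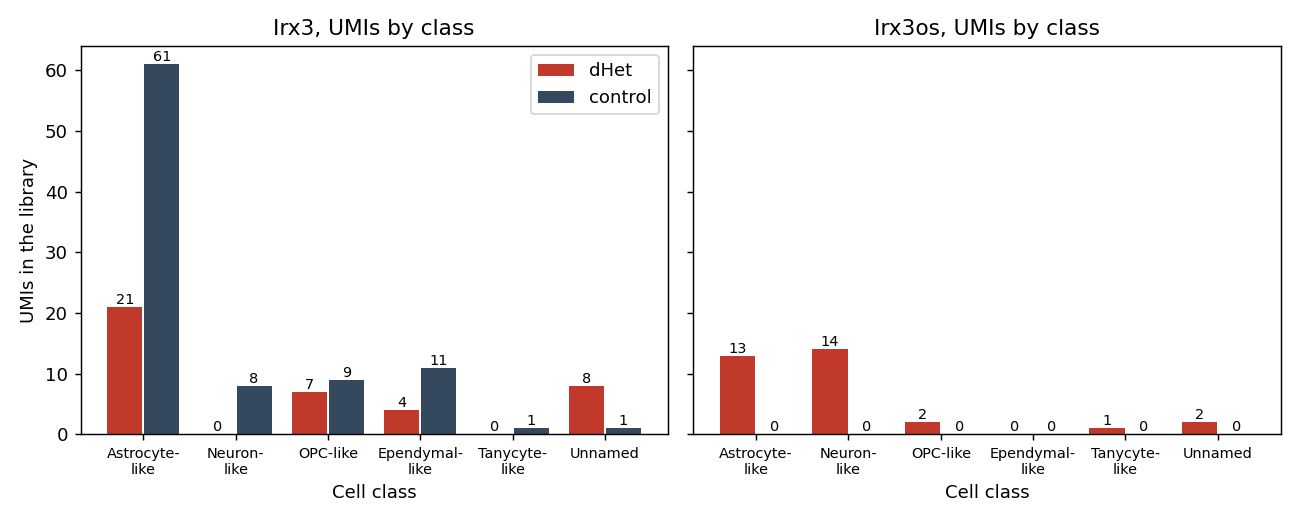
UMIs of Irx3 (left) and of its antisense gene Irx3os (right) in 6 cell classes, with dHet left of control, bars starting at 0 and the count above each bar. Irx3 has 21 UMIs in dHet and 61 in control in astrocyte-like cells, whereas Irx3os has UMIs in dHet and 0 in every control class.

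Between Fto and Irx6 the other annotated genes had few UMIs. Gm36380, annotated next to Irx3 on its Fto side, had 9 UMIs in dHet and 2 in control, a ratio of 4.20 (0.868 to 39.9). Of 14 listed neighbours within 2 Mb of Irx3, Irx5 and Irx6, 8 had at least 20 UMIs in astrocyte-like cells. In the dHet library all 8 were lower, none past 1.5-fold, with a median log2 ratio of -0.26 on the scale log2(CPM + 5), against -0.01 over all genes. Fto, an RNA demethylase gene, had 54.5 CPM in dHet and 78.1 CPM in control there, a ratio of 0.699 (0.562 to 0.868). With every class included Fto was at 1.09 (1.04 to 1.13). Rpgrip1l, a cilium gene beside Fto, had a ratio of 0.704 (0.474 to 1.04) and Chd9 of 0.798 (0.705 to 0.903) in astrocyte-like cells. Summed over all cells, 9 of 11 were lower and 2 higher, with a median log2 ratio of -0.07. The 2 higher were Fto and Irx3os. Only Irx3os, described above, was past 1.5-fold higher, where 3.98% of all genes were. In OPC-like cells 5 of 10 measured neighbours were lower and 5 higher, with a median log2 ratio of -0.01, against 0.02 over all genes. The neighbours of Irx1 and Irx2 gave 1 of 4 higher and 3 of 4 lower in astrocyte-like cells (median -0.10), and 2 of 5 higher and 3 of 5 lower in OPC-like cells (median -0.22), with none past 1.5-fold.

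Of 13 further TALE homeobox genes, which include cofactors of Hox proteins and the family gene Irx4, 12 had at least 20 UMIs over all kept cells. Irx4, with 0 UMIs in dHet and 4 in control, fell short. Of the 12, 3 were higher in dHet and 9 lower, none past 1.5-fold. Their median log2 ratio was -0.05, against -0.02 over all genes. In astrocyte-like cells 4 of 10 were higher and 6 lower (median -0.13). Of the 10, 1 was past 1.5-fold higher and 1 lower, where 6.56% of all genes in this class were past 1.5-fold higher and 6.17% lower. They were Pbx4 at 13.5 CPM in dHet and 7.61 CPM in control, and Meis2 at 8.20 CPM in dHet and 12.8 CPM in control. In OPC-like cells 7 of 9 were higher and 2 lower (median 0.08). Of the 9, 2 were past 1.5-fold higher and none lower, where 9.05% of all genes in this class were past 1.5-fold higher and 5.78% lower.

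Patterning signals, a list of 25 genes of the hedgehog, Wnt and FGF pathways and of early forebrain regulators, were mostly somewhat lower. Over all kept cells 22 of 24 were lower with a median log2 ratio of -0.11, against -0.02 over all genes, 2 of them past 1.5-fold, and 1 was past 1.5-fold higher. Those shares stand beside the 4.32% and 3.98% of all genes given above. Rax, a homeobox gene of tanycytes, had 8.80 CPM in dHet and 14.5 CPM in control. Ptch1, the hedgehog receptor, had a ratio of 0.780 (0.741 to 0.820), and Lef1, a transcription factor of Wnt signalling, one of 0.737 (0.640 to 0.847). Tanycyte-like cells made up 6.06% of cells in dHet and 8.08% in control, and the part of the class mix in these totals was not tested. In astrocyte-like cells 15 of 19 were lower, with a median of -0.22 against -0.01 over all genes. Of the 19, 2 were past 1.5-fold lower, where 6.17% of all genes were. They were Gli3 at a ratio of 0.622 (0.490 to 0.788) and Gli1 at 0.621 (0.429 to 0.894), both transcription factors of the hedgehog pathway. In OPC-like cells 9 of 15 were higher and 6 lower, with a median of 0.05 against 0.02 over all genes. Of the 15, 2 were past 1.5-fold higher and 3 past 1.5-fold lower, where 9.05% of all genes were past 1.5-fold higher and 5.78% lower. Six3, an early forebrain regulator, had a ratio of 1.53 (1.26 to 1.86) there and Tcf7l2, a Wnt pathway factor, one of 0.589 (0.411 to 0.834). Pars tuberalis or pituitary markers stood at 573 CPM in dHet and 140 CPM in control in OPC-like cells. The part of these markers' cells in the 2 ratios was not tested.

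The genes whose levels over the 28 clusters were most like those of each member fell along the same division by class. For Irx1 these were Cspg4 (Pearson correlation 0.97), the gene of the NG2 proteoglycan of oligodendrocyte precursors, Sapcd2, Mcm2, Tmem100 and S1pr2. For Irx2 they were Cspg4 (0.96), Irx1 (0.96), Ckap2, Epn2 and Kif15, of which Kif15 and Ckap2 take part in the mitotic spindle. The OPC-like cluster used here also held dividing cells. At the finer clustering Irx2 had 44.5 CPM in dHet and 42.4 CPM in control in OPC-like cells. In the cycling cluster led by Top2a and Epcam it had 17.5 CPM in dHet and 12.1 CPM in control. For Irx3 they were Adora2b (0.95), an adenosine receptor, Entpd1 (0.94), an enzyme that breaks down extracellular ATP, Agmo, Irx5 and Nhsl1. For Irx5 they were Eef2k (0.93), Hapln3, P2rx7, an ATP-gated channel, Heatr5a and Kcnj16, a potassium channel of glia. The points share their libraries and most of them are near 0, so the correlations rest on a few clusters.

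Within astrocyte-like cells, those with a UMI of Irx3 or Irx5 (68 in dHet and 112 in control) differed little from those without (350 in dHet and 299 in control). Over 6908 genes the difference had the same sign in both libraries for 48.6%. The gene lower by most in both was Foxd1, a forkhead gene of the embryonic hypothalamus, at 11.9 CPM with a UMI and 31.3 CPM without in dHet, and 13.7 CPM with and 37.6 CPM without in control. Among the 10 highest was Nkx2-4, a homeobox gene of the ventral forebrain, at 119 CPM with and 83.9 CPM without in dHet, and 115 CPM with and 83.2 CPM without in control. These 2 genes were picked as extremes of the same difference, so their values are a description. In control the cells with a UMI were also deeper, at a median of 7288.5 UMIs against 4957.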

How the data were processed

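UMI counts per gene and barcode were deposited by the authors for 1 dHet and 1 control library. Alignment and counting used Cell Ranger (version 3.0.2, per the file headers) and build mm10, per the submitters' processing notes. A deposited merged table of counts held the members with the same values in every cell. Cells needed at least 500 genes and no more than 20% mitochondrial UMIs. Doublets were removed at a Scrublet score above 0.25 (expected rate 4%), a threshold set after its automatic choice was seen to be unstable. It marked 41 dHet cells (1.03%) and 32 control cells (0.893%). Clustering in scanpy 1.11.5 used 2000 variable genes without any Iroquois gene, 30 components, 15 neighbours and Leiden resolution 1. A class needed at least 3 of its markers in 25% of cells and, for non-neuronal classes, 1 among its 10 leading genes. The naming rule was adjusted after seeing which clusters it left out. Levels are sums per class in CPM. Intervals are exact (Poisson for UMIs, Clopper-Pearson for shares, conditional binomial for ratios) at 95%. With 1 library per genotype no test across animals was possible. The interval calculation was tested on simulated data.

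The members and gene lists were chosen with earlier results of these data known. Named genes were, per list, up to 4 with at least 50 UMIs and the largest log2 ratio (5 CPM added), the 5 genes most like each member over clusters, and the 10 highest and 10 lowest genes in astrocyte-like cells with against without Irx3 or Irx5 (20 CPM added). Irx3os, Irx4, Gm36380, the cells of the cluster led by Fezf1, the finer astrocyte-like groups and the split into mix and level were chosen after their values were seen. Values of some listed genes are not reported here.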

Additional observations from a re-analysis of the deposited data

Results flagged for a closer look

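The antisense gene Irx3os lies outside the set of members, overlaps Irx3 and was among the listed chromosomal neighbours. Irx3os was singled out after its values were seen. It stood out because it had 33 UMIs in the dHet library, against 0 in the control library, over all kept cells. Of these, 13 UMIs lay in dHet astrocyte-like cells, the class in which Irx3 itself was lower in dHet. A further 14 lay in dHet neuron-like cells, where Irx3 had 0 UMIs in dHet and 8 in control. Of the 32 cells with Irx3os, 1 also held Irx3. The cause was not tested, and no source used here gives the structure of the mutant alleles.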

How the results depend on the processing

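No paired analysis was possible because each genotype has 1 library, and for the same reason no replicate could be left out. The ratio of Irx3 in astrocyte-like cells stayed between 0.235 and 0.346 under 12 alternatives (stricter cells, cells of the merged table, doublets kept or more strictly removed, other Leiden resolutions, ComBat, TMM with edgeR 4.0.16, median-of-ratios scaling, thinning, cells weighted equally, and without the 5 cells with most UMIs). That of Irx5 stayed between 0.481 and 0.643, that of Irx1 ran from 0.846 to 1.16 and that of Irx2 from 0.148 to 0.560. Over all kept cells, 10 alternatives gave 0.368 to 0.450 for Irx3, 0.531 to 0.624 for Irx5, 0.648 to 0.743 for Irx1 and 0.744 to 0.906 for Irx2. In OPC-like cells, where the alternatives were chosen after seeing the data, Irx1 ran from 0.814 to 0.929 and Irx2 from 0.939 to 1.11, so the direction of Irx2 is not set. Irx6 over all kept cells came to a ratio of 0 without its 5 richest cells per library, since all 5 dHet cells were then gone. The Irx5 ratio in OPC-like cells turned to 0.554 after thinning (2 UMIs in dHet and 4 in control). Thinning, which removes UMIs by construction, lowered the share of astrocyte-like cells with Irx5 to 8.09% in dHet and 14.0% in control. It also lowered the cells with Irx1 and Irx2 to 8 in dHet and 17 in control, and those with Irx3 and Irx5 to 2 in dHet and 7 in control. The share of genes past 1.5-fold lower over all kept cells was 12.1% with at least 1 UMI and 1.59% with at least 200 UMIs, and past 1.5-fold higher 13.2% and 0.787%. Irx3os kept 33 UMIs in dHet and 0 in control over every deposited barcode. Irx6, and Irx3 outside astrocyte-like cells, had few UMIs, which limits the precision of their values.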
